A study of Mus musculus with 55 samples.

Results

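Granulocytes sorted from bone marrow of mice at an early stage of breast cancer metastasis to bone were compared with granulocytes of normal marrow, gene by gene. The comparison uses 8 of the 55 libraries of the study, 4 titled Premet (treatment label "Early met stage", called early here) and 4 titled Normal, chosen by title. The study sorted granulocytes and 3 kinds of T cells (helper, cytotoxic and regulatory) from normal and early metastatic marrow and, at a late stage, from peripheral marrow and the metastatic core. Its title concerns blockade of TIGIT together with inhibition of myeloid-derived suppressor cells. The labels give both groups as granulocytes of mouse bone marrow that differ in the stage alone, and state no strain, sex, age, tumour line or time. They do not say that the 4 libraries of a group came from separate animals, so p-values here reflect only how far these libraries vary, which may be technical variation. Libraries were made from total RNA with MARS-seq, a multiplexed protocol that reads the 3′ ends of polyadenylated RNA.

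Neutrophils, the main marrow granulocytes, mature in stages that leave an imprint in their RNA: azurophil granule proteases are made first, specific granule proteins such as cathelicidin and lactoferrin next, and gelatinase granule and migration genes last. G-CSF drives this production, acting through STAT3, and the chemokine receptors CXCR4 and CXCR2 hold mature cells in the marrow or draw them out. In tumour-bearing mice, granulocytes that restrain T cells are called granulocytic myeloid-derived suppressor cells, and inducible nitric oxide synthase and arginase are among the enzymes they are known to use.

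Normal libraries held 577097 to 1232721 reads and early ones 614079 to 1633025, with 7885 to 8199 and 7760 to 8592 genes detected. Levels are given in CPM, recovered reads scaled to an equal library total. All 16 neutrophil markers found in the files passed the filter on low values, and they took 24.7 to 39.7% of the reads in normal and 20.6 to 35.1% in early libraries. The calprotectin genes S100A8 and S100A9 alone took 11.2 to 26.8% and 9.99 to 25.1%. Normal 1 and 2 and early 1 and 3 held lung transcripts, with 1173 to 1462 CPM over 6 lung genes. The other 4 libraries had 20.3 to 30.1 CPM and were deeper (1093308 to 1633025 against 577097 to 1013043 reads). Each group therefore had 2 libraries of each kind. Early 2 and 4 were the most alike pair, with a chi-square per degree of freedom of 2.03 against 10.1 to 44.1 in the other pairs of a group. That test takes reads as independent molecules, so it does not show that they are separate samples. They were kept as 2 libraries, and their mean as 1 library was an alternative chosen after seeing the data.

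Of 3808 genes tested, 116 rose in early granulocytes (3.05%) and 66 fell (1.73%), 4.78% in all, at a Benjamini-Hochberg adjusted p under 0.05 in limma, and 588 had an unadjusted p under 0.05. With early 2 and 4 averaged as 1 library, 88 rose and 49 fell. Changes are differences on the log2(value + 4) scale, given with their SE, and understate the change of genes with few reads. The raised genes had a median change of 1.21 and a largest of 3.74, with 84 at 1 or more. The lowered genes had a median size of 1.09 and a largest of 2.07, with 44 at 1 or more. The median over all tested genes was 0.0034. Counts of called genes in the lists below stand beside 3.05% raised and 1.73% lowered over all genes. The lists were chosen with earlier results of these data known, so a larger share in a list is not read as an excess. All early libraries lay above all normal ones for 281 genes (7.38%) and below them for 249 (6.54%). This separation held for 115 of the 116 raised genes, CSF2RB being the exception, and for all 66 lowered ones.

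**Figure D1:**
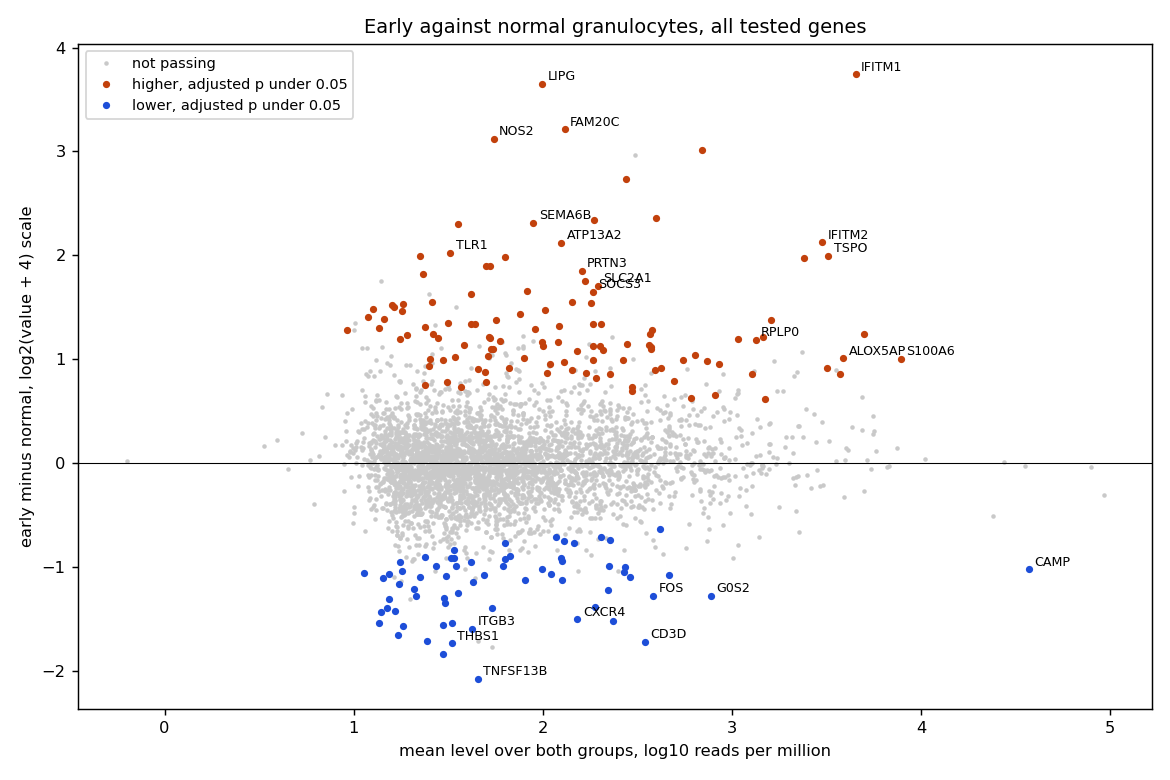
Each point is a gene tested, by its mean level over both groups (x axis, log10 CPM) and its early minus normal difference (y axis, log2(value + 4) scale, 4 libraries a group). Orange points are the 116 raised genes and blue points the 66 lowered ones, and IFITM1, LIPG, FAM20C and NOS2 stand at the top among the named genes.

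IFITM1, an interferon-induced transmembrane gene, had the largest difference among the called genes on the log2(value + 4) scale. The family's small membrane proteins restrict the entry of enveloped viruses and are best known as interferon targets. IFITM1 (ENSG00000185885 in the files, GRCm38 chromosome 7, 140967221 to 140969825, plus strand) stood at 489, 584, 662 and 789 CPM in normal 1 to 4 and at 12149, 7127, 7255 and 6903 CPM in early 1 to 4. Every early library was far above every normal one, and early 1 was apart from the other early libraries. The gene rose by 3.74 ± 0.48 (adjusted p = 0.00045). IFITM2 (chromosome 7, 140954837 to 140955987, minus strand) stood at 955, 1190, 1143 and 1273 CPM in normal and 4508, 4290, 5846 and 4686 CPM in early libraries. The groups were again far apart, and the gene rose by 2.13 ± 0.22 (adjusted p = 2.8e-05). IFITM3 (chromosome 7, 141009586 to 141010770, minus strand) stood at 1329, 1689, 1452 and 1661 CPM in normal and 4018, 3083, 2137 and 3465 CPM in early libraries. Its groups did not overlap, but its difference of 1.07 ± 0.52 missed the threshold (adjusted p = 0.35) in the fit that takes its spread from all 15 granulocyte libraries, and passed with the 8 libraries alone (adjusted p = 0.014). The sources used here do not say how reads of similar family members were assigned.

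The promoter windows of these 3 neighbouring genes are shown because IFITM1 and IFITM2 rose and IFITM3 lies beside them, from 250 bases before to 50 after the start in RefSeq (GRCm38.p6), 5′ to 3′ on the gene's strand. The windows are chr7:140967826-140968125 (plus strand) for Ifitm1, chr7:140955912-140956211 (minus strand) for Ifitm2 and chr7:141010695-141010994 (minus strand) for Ifitm3. Capitals mark matches on either strand to the core of the interferon-stimulated response element (GAAA, 2 bases of any kind, GAAA) or to TTCNNNGAA, the core of a STAT site.
IFITM1: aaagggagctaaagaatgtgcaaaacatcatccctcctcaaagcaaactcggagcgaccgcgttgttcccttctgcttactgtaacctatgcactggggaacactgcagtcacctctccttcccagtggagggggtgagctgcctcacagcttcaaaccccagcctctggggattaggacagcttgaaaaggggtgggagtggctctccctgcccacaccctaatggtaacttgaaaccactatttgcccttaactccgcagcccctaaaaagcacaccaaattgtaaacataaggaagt
IFITM2: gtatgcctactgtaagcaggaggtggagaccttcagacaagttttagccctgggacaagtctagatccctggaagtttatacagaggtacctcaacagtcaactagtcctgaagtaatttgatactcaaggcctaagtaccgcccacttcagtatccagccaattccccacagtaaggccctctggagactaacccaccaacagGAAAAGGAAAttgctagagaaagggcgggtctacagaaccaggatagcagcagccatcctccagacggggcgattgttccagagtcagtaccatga
IFITM3: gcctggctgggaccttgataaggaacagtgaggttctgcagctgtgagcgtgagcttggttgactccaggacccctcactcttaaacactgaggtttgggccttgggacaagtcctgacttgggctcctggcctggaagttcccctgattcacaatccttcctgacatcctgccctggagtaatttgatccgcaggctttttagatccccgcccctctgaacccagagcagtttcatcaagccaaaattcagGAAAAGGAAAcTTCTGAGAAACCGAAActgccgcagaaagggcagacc
The Ifitm1 window held neither string. It lies wholly inside the Ifitm1 gene of GENCODE M21, downstream of that gene's 5′ end at 140967221. The bases before that end were not searched, so the window does not show whether they hold either string. The Ifitm2 window held 1 response-element match that begins at base -46 from the start. The Ifitm3 window held 2, at bases 3 and 20 after it, and a STAT match at base 14 that overlaps the later of them. A response-element match was in 3.44% of all 32851 RefSeq windows, in 4.03% of the 124 windows of raised genes and in 3.23% of the 62 windows of lowered ones.

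Of 14 tested genes on a list of other type I interferon response genes, 1 fell and 0 rose in limma. The median difference was -0.16. The list is not complete, and PLSCR1, which rose by 1.47 ± 0.22 and is given below, was not on it. At an unadjusted p under 0.05 in limma 2 were lower and 0 higher, and edgeR, DESeq2 and limma-voom each called CMPK2 alone. CMPK2, a mitochondrial nucleotide kinase induced by interferon, stood at 38.1, 37.1, 55.8 and 78.7 CPM in normal and 8.88, 35.8, 6.51 and 22.7 CPM in early libraries. It fell by 1.25 ± 0.32 (adjusted p = 0.029), with early 2 just under the lowest normal library. ISG15, the ubiquitin-like interferon product, stood at 51.0 and 47.9 CPM on average in normal and early libraries, and IRF7, the master regulator of interferon genes, at 232 and 162 CPM. Neither passed. CMPK2 missed the threshold without normal 1, 3 or 4 or early 1 or 3, with adjusted p up to 0.13.

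NOS2 (ENSG00000007171, chromosome 11, 78920787 to 78960254, plus strand), inducible nitric oxide synthase, had few reads in normal granulocytes. It stood at 0, 3.09, 9.15 and 12.2 CPM in normal and at 97.7, 112, 114 and 91.9 CPM in early libraries. The 4 early libraries lay close together and far above the normal ones, and the group means differed 17.0-fold. The change was 3.12 ± 0.46 (adjusted p = 0.0011), and limma-voom alone among the tools missed the threshold (adjusted p = 0.24). Of the 17 suppressor cell genes tested, 3 rose, beside 3.05% over all genes, with a median of 0.31 beside 0.0034 over all genes. Besides NOS2 these were STAT3 and CD14, the lipopolysaccharide co-receptor. CD14 stood at 163, 187, 79.6 and 88.4 CPM in normal and 267, 246, 339 and 224 CPM in early libraries, with no overlap, and rose by 1.13 ± 0.30 (adjusted p = 0.033). It missed the threshold in edgeR (adjusted p = 0.059) and without normal 3 or 4 or early 1, 2 or 3, with adjusted p up to 0.14.

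Other suppressor genes did not pass. ARG1, the arginase most often linked with suppression, had too few reads to be tested, at 0 to 1.55 CPM in normal and 0 to 1.97 CPM in early libraries. ARG2, the mitochondrial arginase, overlapped between groups at 90.1 to 221 and 104 to 299 CPM (0.42 ± 0.28, adjusted p = 0.57). PTGS2, the inducible prostaglandin synthase, and CD274, which encodes PD-L1, were also untested. CD274 stood at 3.09 to 4.06 CPM in normal and 0.612 to 1.92 CPM in early libraries. S100A8 and S100A9 overlapped widely, at -0.03 ± 0.34 and -0.31 ± 0.50, and so did IL1B (0.56 ± 0.39) and TGFB1 (-0.20 ± 0.21).

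Of 21 cytokine receptor and JAK-STAT genes tested 6 rose, beside 3.05% over all genes, with a median of 0.22. IFNGR1, the ligand-binding chain of the interferon gamma receptor, stood at 55.5, 86.5, 64.9 and 75.4 CPM in normal and 207, 225, 178 and 242 CPM in early libraries. The lowest early library held more than 2 times the highest normal one, and the change was 1.55 ± 0.24 (adjusted p = 0.0012). CSF2RB, the signalling chain shared by the receptors of GM-CSF, IL-3 and IL-5, stood at 135, 207, 268 and 208 CPM in normal and 183, 718, 464 and 760 CPM in early libraries. Early 1 lay among the normal libraries, and the gene rose by 1.24 ± 0.30 (adjusted p = 0.020). It missed the threshold without normal 1, 2 or 4 or early 2 or 4, with adjusted p up to 0.077. CSF3R, the G-CSF receptor, overlapped between groups at 607 to 1210 and 872 to 1708 CPM (0.68 ± 0.37, adjusted p = 0.43).

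Within the cells, JAK3, a kinase bound to common gamma chain receptors, stood at 9.27 to 18.7 CPM in normal and 39.5 to 55.4 CPM in early libraries (1.35 ± 0.32, adjusted p = 0.019). STAT3, which carries the G-CSF and IL-6 signals to the nucleus, stood at 208, 221, 217 and 238 CPM in normal and 243, 391, 394 and 448 CPM in early libraries. Early 1 was barely above the highest normal library, and the gene rose by 0.74 ± 0.17 (adjusted p = 0.013). SOCS3, a STAT3 target that feeds back on these receptors, stood at 72.8, 60.3, 83.2 and 114 CPM in normal and 253, 391, 125 and 368 CPM in early libraries. Early 3 was close to normal 4, and the gene rose by 1.65 ± 0.33 (adjusted p = 0.0076). PIM1, a survival kinase induced by STAT signalling, stood at 47.9 to 81.4 and 109 to 208 CPM (1.32 ± 0.29, adjusted p = 0.013). JAK3 missed the threshold in limma-voom (adjusted p = 0.068) and without normal 2 or 3 or early 1 (up to 0.072), PIM1 without normal 2 or early 1 (up to 0.054), and STAT3 when values were scaled to the library total (0.082).

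The SOCS3 window is shown for its STAT match, which begins at base -154 from the RefSeq start. It spans chr11:117969317-117969616, minus strand, with TTCNNNGAA in capitals. The whole window lies inside the Socs3 gene of GENCODE M21 (117966079 to 117970047). The match is therefore downstream of the 5′ end in that annotation, and the bases before that end were not searched.
SOCS3: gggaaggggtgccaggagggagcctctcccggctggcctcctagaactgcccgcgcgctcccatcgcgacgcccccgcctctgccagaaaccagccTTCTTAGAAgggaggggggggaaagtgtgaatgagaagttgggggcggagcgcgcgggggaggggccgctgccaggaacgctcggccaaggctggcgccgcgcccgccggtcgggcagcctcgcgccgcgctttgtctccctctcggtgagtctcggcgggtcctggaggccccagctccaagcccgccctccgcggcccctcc
A match to this string was in 8.3% of all RefSeq windows and in 6.66% of the 4084 windows of tested genes, of which 3112 of 3808 matched by symbol. It was in 16 of the 124 windows of raised genes (12.9%, 95 of 116 genes matched) and in 4.84% of the windows of lowered ones (50 of 66 matched). These shares are descriptions, and no factor's binding was measured.

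**Figure D2:**
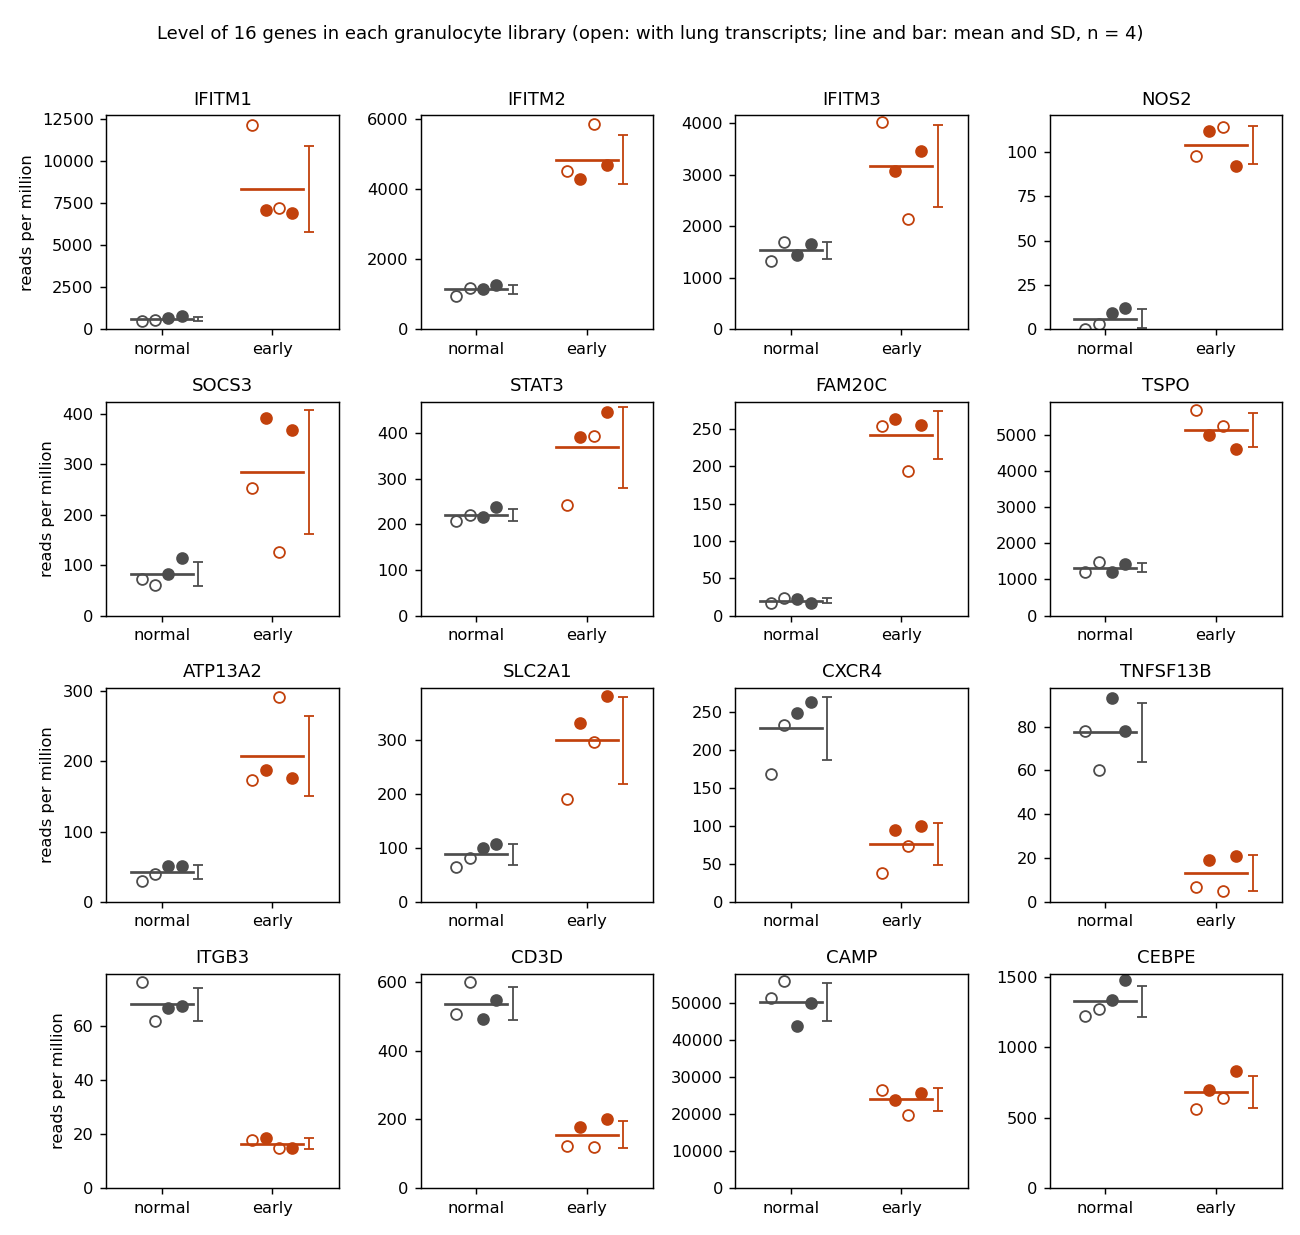
Level of 16 genes in CPM (y axis, from 0) in each normal and early granulocyte library (x axis); open circles are the libraries with lung transcripts, lines are means and bars SD (n = 4). IFITM1, NOS2 and FAM20C show wide gaps between groups, SOCS3 and STAT3 narrow ones, and CXCR4, TNFSF13B, ITGB3, CD3D, CAMP and CEBPE lie lower in all early libraries.

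Enzymes and membrane proteins of other kinds were among the most changed genes. FAM20C (chromosome 5, 138754514 to 138810077, plus strand), the Golgi kinase that phosphorylates secreted proteins, stood at 17.3, 23.2, 22.0 and 16.2 CPM in normal and 254, 264, 194 and 255 CPM in early libraries. The groups differed 12.3-fold in mean, and the change was 3.21 ± 0.33 (adjusted p = 2.8e-05). TSPO, an outer mitochondrial membrane protein that binds cholesterol and porphyrins, stood at 1218, 1471, 1205 and 1416 CPM in normal and 5688, 4986, 5242 and 4596 CPM in early libraries. Both groups were tight, and the gene rose by 2.00 ± 0.21 (adjusted p = 2.8e-05). LIPG, endothelial lipase, stood at 3.47, 7.73, 11 and 6.49 CPM in normal and 236, 242, 73.3 and 216 CPM in early libraries. Even early 3, the lowest, was above every normal library, and the change was 3.65 ± 0.53 (adjusted p = 0.0012), which limma-voom did not call (0.074). ATP13A2, a lysosomal polyamine exporter, stood at 29.5 to 51.1 CPM in normal and 173 to 291 CPM in early libraries (2.12 ± 0.23, adjusted p = 2.8e-05). CBR3, a carbonyl reductase, stood at 1.55 to 10.1 and 24.4 to 49.9 CPM (1.99 ± 0.32, adjusted p = 0.0012), and was not called by limma-voom (0.11). The phospholipid scramblase PLSCR1 stood at 44.8 to 56.7 and 82.9 to 191 CPM (1.47 ± 0.22).

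Granule and maturation genes did not all move the same way. Of 8 azurophil granule genes 1 rose in limma, with a median of 1.00 and 6 differences above 0. At an unadjusted p under 0.05 in limma 5 were higher and 0 lower, beside 8.46% higher over all genes. DESeq2, limma-voom and edgeR called 3, 2 and 0 of them higher. PRTN3, proteinase 3, stood at 71.0, 30.9, 63.1 and 115 CPM in normal and 224, 292, 169 and 315 CPM in early libraries, without overlap, and rose by 1.85 ± 0.48 (adjusted p = 0.035). Its neighbour ELANE, neutrophil elastase, overlapped at 10.8 to 78.7 and 55.3 to 140 CPM (1.11 ± 0.49, adjusted p = 0.28), as did MPO, myeloperoxidase, at 36.4 to 89.2 and 31.6 to 130 CPM. Of 10 specific granule genes 1 fell, with a median of -0.15. CAMP, the cathelicidin antimicrobial peptide, stood at 51333, 55990, 43662 and 49897 CPM in normal and 26427, 23849, 19703 and 25769 CPM in early libraries. Every early library was well below every normal one, and the gene fell by 1.02 ± 0.28 (adjusted p = 0.041). LTF, lactoferrin, also lay lower in all early libraries, at 25871 to 31172 and 13052 to 24349 CPM, but missed the threshold (-0.51 ± 0.38, adjusted p = 0.62). LCN2, lipocalin 2, was at -0.03. Among 11 gelatinase and secretory granule genes 1 rose, with a median of -0.04. This was ASPRV1, a retroviral-like protease, at 736, 913, 947 and 1196 CPM in normal and 2724, 3114, 6745 and 2780 CPM in early libraries (1.97 ± 0.27, adjusted p = 0.00034). PRTN3 missed the threshold without normal 1, 2 or 3 or early 1, 2 or 4 (adjusted p up to 0.11), and CAMP without any 1 library other than early 1 (up to 0.13); edgeR called neither.

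Of 17 granulopoiesis factors and receptors 2 fell and CSF2RB rose, with a median of -0.15. CEBPA, which commits progenitors to the granulocyte line, stood at 50.3, 66.5, 67.7 and 94.1 CPM in normal and 15.8, 28.1, 32.6 and 36.1 CPM in early libraries, and fell by 1.07 ± 0.25 (adjusted p = 0.019). GFI1, a repressor needed for neutrophil development, stood at 13.9 to 26.8 CPM in normal and 0.987 to 9.77 CPM in early libraries (-1.10 ± 0.31, adjusted p = 0.049). CEBPE, the driver of specific granule genes, stood at 1225, 1275, 1335 and 1477 CPM in normal and 564, 698, 637 and 830 CPM in early libraries. Its groups were well apart, at -0.91 ± 0.27, but its adjusted p was 0.060. It passed in 8 other settings, among them edgeR (adjusted p = 0.045) and the fit of the 8 libraries alone (0.0018). All 13 proliferation genes tested missed the threshold in limma, edgeR, DESeq2 and limma-voom, with a median of -0.35, 1 value above 0, that of TOP2A, and 2 genes lower at an unadjusted p under 0.05, CDC20 and MCM7. CEBPA missed it without normal 4 or early 1 (up to 0.073), and GFI1 without any 1 library other than early 3 (up to 0.16). GFI1 was also missed by edgeR (0.068), with TMM scaling (0.055), with scaling to the library total (0.070) and at a pseudocount of 1 (0.14). In bulk RNA, fewer cells of a stage and less RNA per cell cannot be told apart.

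Retention and chemoattractant receptors changed singly: 1 of 14 rose and 2 fell, with a median of 0.03. CXCR4 (chromosome 1, 128588199 to 128592293, minus strand), the CXCL12 receptor that holds neutrophils in marrow, stood at 168, 233, 249 and 263 CPM in normal and 37.5, 94.0, 73.3 and 99.8 CPM in early libraries. The groups did not overlap, and the gene fell by 1.5 ± 0.25 (adjusted p = 0.0021). ADGRE5, which encodes the adhesion receptor CD97, stood at 440 to 650 and 238 to 377 CPM (-0.63 ± 0.16, adjusted p = 0.033). CXCR1, a receptor for neutrophil-attracting chemokines, stood at 0, 3.09, 5.49 and 1.62 CPM in normal and 16.8, 28.1, 8.14 and 38.0 CPM in early libraries, and rose by 1.48 ± 0.40 (adjusted p = 0.037). CXCR2, the main marrow exit receptor, overlapped at 66.5 to 185 and 40.7 to 315 CPM (0.60 ± 0.58, adjusted p = 0.75). Its difference was -0.05 in the libraries with lung transcripts and 1.25 in those without. ADGRE5 missed the threshold without any 1 library other than normal 2 (up to 0.14), and CXCR1 without any other than early 3 (up to 0.12) and in limma-voom (0.20).

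Adhesion molecules moved both ways: of 16 integrins and adhesion genes 2 rose and 3 fell, with a median of -0.20. ITGB3, the beta 3 integrin chain, stood at 76.2, 61.8, 66.8 and 67.3 CPM in normal and 17.8, 18.6, 14.7 and 14.7 CPM in early libraries. Both groups were tight, and the gene fell by 1.59 ± 0.24 (adjusted p = 0.0011). SPN, the sialomucin CD43, stood at 104 to 131 and 30.6 to 63.1 CPM (-1.12 ± 0.20, adjusted p = 0.0030), and ITGB7, the beta 7 chain of gut-homing integrins, at 17.3 to 29.2 and 4.48 to 9.77 CPM (-1.07 ± 0.28, adjusted p = 0.033). MCAM, the melanoma cell adhesion molecule CD146, stood at 13.9, 1.55, 6.4 and 5.68 CPM in normal and 32.6, 81.3, 68.4 and 75.9 CPM in early libraries, and rose by 2.30 ± 0.29 (adjusted p = 0.00016). SELP, P-selectin, stood at 13.9 to 17.4 and 37.5 to 97.9 CPM (1.63 ± 0.32, adjusted p = 0.0063). ITGB3 and SELP are also platelet genes, and went opposite ways. The summed megakaryocyte and platelet markers stood at 109 to 193 CPM in normal and 77.0 to 138 CPM in early libraries, with GP1BA and GP6 at 0. ITGB3 and SELP are the 2 highest genes of this sum, whose means were 138 and 110 CPM. Of these ITGB3 held 68.0 and 16.4 CPM and SELP 15.9 and 67.3 CPM. ITGB7 missed the threshold in edgeR (0.056) and without any 1 library other than early 3 (up to 0.11).

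Among cell surface ligands, TNFSF13B (chromosome 8, 10006467 to 10039072, plus strand), which encodes the B cell survival factor BAFF, stood at 78.0, 60.3, 93.3 and 77.9 CPM in normal and 6.91, 19.2, 4.89 and 20.8 CPM in early libraries. It fell by 2.07 ± 0.28 (adjusted p = 0.00034), the largest drop among the called genes on the log2(value + 4) scale, and was the only called gene among 7 of the TNF superfamily. Among 5 semaphorin and plexin genes, SEMA6B stood at 15.6, 15.5, 41.2 and 34.9 CPM in normal and 141, 134, 189 and 141 CPM in early libraries and rose by 2.31 ± 0.27 (adjusted p = 5.3e-05). SEMA7A, a membrane-anchored semaphorin of leukocytes, stood at 19.1 to 37.5 and 1.84 to 9.77 CPM and fell by 1.42 ± 0.27 (adjusted p = 0.0047). Of 9 TGF-beta response genes 1 fell, with a median of -0.01. THBS1, thrombospondin 1, stood at 48.5, 55.6, 66.8 and 41.4 CPM in normal and 13.8, 2.56, 34.2 and 1.22 CPM in early libraries (-1.73 ± 0.42, adjusted p = 0.020). Its early levels were higher in the 2 libraries with lung transcripts, where the difference was -0.91 against -2.55 in those without. Its call was missed by edgeR (0.15) and DESeq2 (0.077) and without normal 1, 2 or 3 or early 2 or 4 (up to 0.070).

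Of 17 pattern receptors of innate sensing and their adaptors 3 rose, beside 3.05% over all genes, with a median of 0.34. At an unadjusted p under 0.05 in limma 4 were higher and 3 lower (NLRP3, FCGR2B and NOD1). DESeq2 also called NLRP3 lower. TLR1, a partner of TLR2 in sensing lipopeptides, stood at 6.93, 3.09, 9.15 and 8.11 CPM in normal and 43.4, 88.3, 17.9 and 82.1 CPM in early libraries, and rose by 2.02 ± 0.38 (adjusted p = 0.0049, and 0.070 in limma-voom). MYD88, the adaptor of most toll-like receptors, stood at 182 to 292 and 362 to 606 CPM (1.11 ± 0.19, adjusted p = 0.0021). The third was CD14. BCL3, a nuclear IkB protein, was the 1 gene that rose among 16 NF-kB genes, at 76.2 to 160 and 228 to 347 CPM (1.34 ± 0.23, adjusted p = 0.0026). Among 12 inflammatory cytokine and chemokine genes the 2 called were decoys or antagonists of interleukin 1. IL1R2, the decoy receptor, stood at 239, 195, 222 and 213 CPM in normal and 750, 465, 593 and 355 CPM in early libraries and rose by 1.29 ± 0.34 (adjusted p = 0.035). IL1RN, the receptor antagonist, stood at 237, 266, 284 and 325 CPM in normal and 76.0, 110, 89.6 and 119 CPM in early libraries and fell by 1.38 ± 0.33 (adjusted p = 0.020). IL1R2 missed the threshold in limma-voom (0.058) and without any 1 library other than early 4 (up to 0.13), and IL1RN without normal 2, 3 or 4 or early 1 (up to 0.061).

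Of 11 lipid mediator genes 1 rose and 2 fell, with a median of -0.66. ALOX5AP, which presents arachidonate to 5-lipoxygenase, stood at 2327, 2612, 2681 and 2875 CPM in normal and 4619, 5265, 5652 and 4841 CPM in early libraries and rose by 1.01 ± 0.17 (adjusted p = 0.0021). TBXAS1, thromboxane synthase, stood at 20.8 to 29.2 and 1.84 to 11.4 CPM (-1.31 ± 0.29, adjusted p = 0.013), and PTGS1, the constitutive prostaglandin synthase, at 24.3 to 54.9 and 12.8 to 26.9 CPM (-0.91 ± 0.21, adjusted p = 0.018). PTGS1 missed the threshold without normal 2, 3 or 4 or early 1 (up to 0.068), and TBXAS1 narrowly without normal 2. Of 21 immediate early and heat shock genes 1 fell in limma, with a median of -0.20. At an unadjusted p under 0.05 in limma 5 were lower (BTG2, FOS, DUSP1, IER2 and ZFP36) and 0 higher. DESeq2 called BTG2, FOS and DUSP1 lower, and edgeR and limma-voom FOS alone. FOS, a subunit of the AP-1 factor, stood at 541, 410, 567 and 698 CPM in normal and 210, 240, 220 and 181 CPM in early libraries and fell by 1.28 ± 0.27 (adjusted p = 0.010). Among 22 NADPH oxidase and antioxidant genes, HVCN1, the proton channel that sustains the oxidative burst, stood at 312 to 390 and 67.1 to 152 CPM and fell by 1.51 ± 0.32 (adjusted p = 0.010). GCLM, a subunit of the enzyme that starts glutathione synthesis, stood at 49.5 to 90.6 and 124 to 387 CPM and rose by 1.75 ± 0.47 (adjusted p = 0.041). GCLM missed the threshold in limma-voom (0.052) and without any 1 library other than early 3 (up to 0.13).

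Of 22 glycolysis and hypoxia genes 3 rose, beside 3.05% over all genes, with a median of 0.22. SLC2A1, the glucose transporter GLUT1, stood at 64.1, 81.9, 99.7 and 108 CPM in normal and 192, 332, 296 and 382 CPM in early libraries and rose by 1.71 ± 0.26 (adjusted p = 0.0011). MIF, a cytokine induced by hypoxia, stood at 11 to 30.8 and 42.3 to 74.7 CPM (1.34 ± 0.30, adjusted p = 0.013), and LDHA, lactate dehydrogenase A, at 958 to 1309 and 1455 to 1956 CPM (0.62 ± 0.16, adjusted p = 0.034). SDHB, a subunit of succinate dehydrogenase, rose by 0.69 ± 0.18 (adjusted p = 0.027) as the 1 called gene of 27 in oxidative phosphorylation. Of 12 cholesterol and lipid genes 2 rose and 1 fell, with a median of 0.35. FDPS, farnesyl diphosphate synthase, stood at 46.8 to 54.9 and 114 to 170 CPM (1.29 ± 0.29, adjusted p = 0.013). SREBF1, a transcription factor of lipid synthesis genes, stood at 23.2 to 30 and 39.5 to 55.4 CPM (0.74 ± 0.18, adjusted p = 0.023). G0S2, an inhibitor of the triglyceride lipase ATGL, stood at 949 to 1330 and 382 to 491 CPM and fell by 1.27 ± 0.28 (adjusted p = 0.013). LDHA missed the threshold without any 1 of the 8 libraries (up to 0.12), SDHB without any but early 3 and 4 (up to 0.10), SREBF1 in limma-voom (0.060) and without any but early 2 (up to 0.074), MIF without normal 3 (0.055) and FDPS without early 1 (0.053).

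Most ribosomal protein genes had a positive difference. Of 68 tested, 8 rose and 61 differences were above 0, with a median of 0.47, beside 1925 of 3808 differences above 0 over all genes. At an unadjusted p under 0.05, 30 of the 68 were higher (44.1%), beside 322 of 3808 (8.46%). Together the 82 genes of this kind in the files took 3.64, 3.97, 3.16 and 3.95% of the reads in normal and 7.11, 4.35, 6.57 and 4.30% in early libraries. The groups did not overlap, and early 1 and 3, which hold lung transcripts, were the highest. RPLP0, a stalk protein of the large subunit, stood at 714, 1022, 734 and 855 CPM in normal and 2105, 1690, 2084 and 1475 CPM in early libraries and rose by 1.19 ± 0.20 (adjusted p = 0.0022). RPSA, a small subunit protein, stood at 634 to 1068 and 1420 to 3549 CPM (1.37 ± 0.33, adjusted p = 0.020), with a difference of 1.78 in the libraries with lung transcripts and 0.97 in those without. These genes have many near-identical pseudogenes, and the sources used here do not say how shared reads were counted. Except for RPLP0, each of the 8 missed the threshold without at least 2 single libraries, with adjusted p up to 0.17, and limma-voom missed RPL10A, RPS12 and RPL12 (each 0.070).

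Smaller changes completed the lists. S100A6, a calcium-binding protein, was the 1 called gene of 8 in its family, at 4978, 5635, 5129 and 5445 CPM in normal and 11364, 9057, 12047 and 8843 CPM in early libraries (1.00 ± 0.21, adjusted p = 0.010). BCL2L1, which encodes the survival protein BCL-XL, was the 1 called of 12 apoptosis genes, at 73.2 to 102 and 144 to 238 CPM (0.98 ± 0.24, adjusted p = 0.024). SLC7A5, the large neutral amino acid carrier, stood at 1.62 to 5.49 and 13.8 to 39.1 CPM (1.3 ± 0.25, adjusted p = 0.0054), and the GABA carrier SLC6A13 at 29.4 to 55.2 and 3.20 to 14.7 CPM (-1.71 ± 0.29, adjusted p = 0.0022). Of 33 lysosome genes 2 rose, ATP13A2 and the membrane receptor SCARB2 (0.79 ± 0.18), and 1 fell, the protease CTSH (-0.71 ± 0.19). FAM20C was the 1 called in limma of 21 endoplasmic reticulum and secretory genes, and edgeR, DESeq2 and limma-voom each called 2 higher. None of 11 MHC class I genes and none of 10 tetraspanin genes passed in limma, with medians of -0.13 and -0.19. At an unadjusted p under 0.05, 2 and 3 of them were lower, and DESeq2 called CD81 lower. SLC7A5 missed the threshold in limma-voom (0.064). BCL2L1, SCARB2 and CTSH missed the threshold without 6, 3 and 8 of the single libraries, with adjusted p up to 0.091, 0.070 and 0.12.

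Further lowered genes were found among the most changed. LYL1, a basic helix-loop-helix factor of blood progenitors, stood at 257 to 375 CPM in normal and 91.2 to 162 CPM in early libraries (-1.22 ± 0.24, adjusted p = 0.0059). LMO2, its partner in a progenitor complex, stood at 39.9 to 57.2 and 6.91 to 20.5 CPM (-1.3 ± 0.22, adjusted p = 0.0022). CHAF1B, a chromatin assembly factor subunit, stood at 35.5 to 60.6 and 2.96 to 16.3 CPM (-1.56 ± 0.28, adjusted p = 0.0030). Other lowered genes were MGLL, monoglyceride lipase (-1.39 ± 0.25), ST3GAL5, the GM3 ganglioside synthase (-1.07 ± 0.21), NAT8L, an acetyltransferase that makes N-acetylaspartate (-1.57 ± 0.31), and VNN3, a pantetheinase (-1.53 ± 0.31). RASL11B, a small GTPase, stood at 46.8, 49.5, 52.1 and 54.4 CPM in normal and 4.94, 6.4, 16.3 and 6.74 CPM in early libraries (-1.83 ± 0.28, adjusted p = 0.0011). All were lower in each early library than in any normal one, as was every lowered gene.

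Markers of other cells moved in several ways. CD3D, the delta chain of CD3 on T cells, stood at 506, 600, 494 and 548 CPM in normal and 123, 177, 121 and 200 CPM in early libraries and fell by 1.72 ± 0.25 (adjusted p = 0.00070). Its mean in normal granulocytes was 537 CPM, beside 377 CPM in normal CD4 and 1115 CPM in normal CD8 libraries. The other T cell markers summed to 11.9 to 49.5 CPM in normal and 11.6 to 29.3 CPM in early granulocyte libraries, and CD3E stood at 0 to 1.73 and 0 to 1.63 CPM. The macrophage genes C1QA, C1QB and C1QC summed to 44.8 to 102 and 17.1 to 50.5 CPM, with overlap. C1QC was the 1 called gene of 8 tested on the monocyte and macrophage list. It fell by 1.05 ± 0.25 (limma adjusted p = 0.019), without overlap. C1QA (-1.04 ± 0.32) and C1QB (-0.81 ± 0.25) missed the threshold (0.077 and 0.071). C1QC and C1QB were called lower by edgeR and DESeq2, and C1QC and C1QA by limma-voom. The whole monocyte and macrophage list summed to 584 to 743 CPM in normal and 856 to 910 CPM in early libraries, without overlap and with CX3CR1 at 0. Without APOE, a lipoprotein of macrophages left out after its values were seen, the sums overlapped at 397 to 586 and 383 to 621 CPM. APOE itself stood at 207 ± 87.5 and 395 ± 133 CPM (SD, n = 4), and its difference of 1.00 ± 0.41 missed the threshold (adjusted p = 0.22). Erythroid markers summed to 7.73 to 17.8 and 0.612 to 1.92 CPM, B cell markers to 97.9 to 209 and 58.9 to 104 CPM, and plasma cell markers to 95.3 to 147 and 151 to 267 CPM. XBP1 alone made up most of the plasma cell sum, with means of 120 and 203 CPM of 130 and 210 CPM. Its groups did not overlap, and its difference of 0.75 ± 0.22 missed the threshold in limma (adjusted p = 0.064). XBP1 was called higher by edgeR, DESeq2 and limma-voom. Mammary epithelial markers other than LCN2 summed to 11.9 to 23.2 and 6.74 to 26.1 CPM, and 6 of them, KRT5 and KRT14 included, were at 0. Basophil, mast cell and eosinophil markers summed to 612 to 859 and 443 to 1627 CPM. HDC alone made up most of this sum, with means of 714 and 1097 CPM of 726 and 1124 CPM. XBP1 and HDC were singled out after their values were seen. The part of other cells in the results was not tested.

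**Figure D3:**
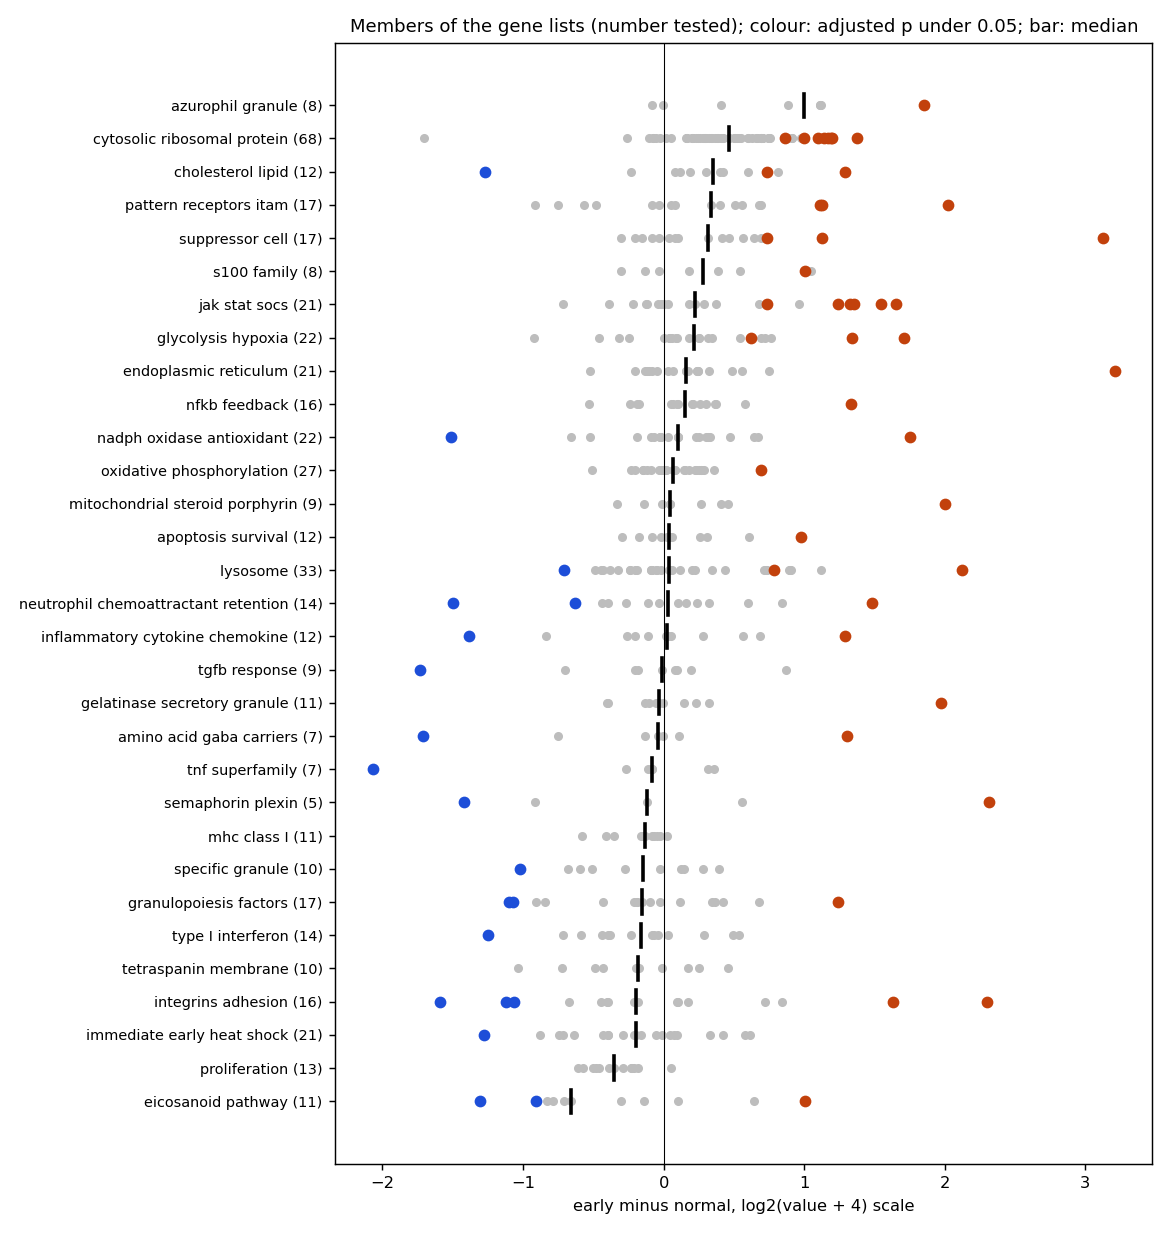
Early minus normal difference (x axis, log2(value + 4) scale) of each tested member of the lists with at least 5 tested members (y axis, number tested in brackets); orange members rose, blue ones fell, grey ones missed the threshold and the black bar is the list's median. Most members of most lists lie near 0, the ribosomal and azurophil lists lie to the right, and the eicosanoid list to the left.

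Each group had 2 libraries with lung transcripts and 2 without, and the differences are given within each kind as a description. Within the 4 libraries that hold them (2 early, 2 normal), all 116 raised genes had a positive difference and all 66 lowered genes a negative one, with medians of 1.23 and -1.12. Within the other 4 the medians were 1.22 and -1.04, again with no gene of the other sign. That shared direction follows from the choice of genes, since groups that do not overlap, as in all but CSF2RB, keep their sign in any subset, and it is no sign of stability. A term for these transcripts in the fit gave 153 raised and 88 lowered genes and included all 182 calls. The term itself passed for 170 of 3808 genes (4.46%) and for 7 of the 182 called ones (3.85%), SLC2A1, RPSA, RPS20, RPS28 and THBS1 among them. With 2 libraries a group, 14 genes rose and 4 fell in the libraries without lung transcripts and 9 rose and 2 fell in those with them.

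**Figure D4:**
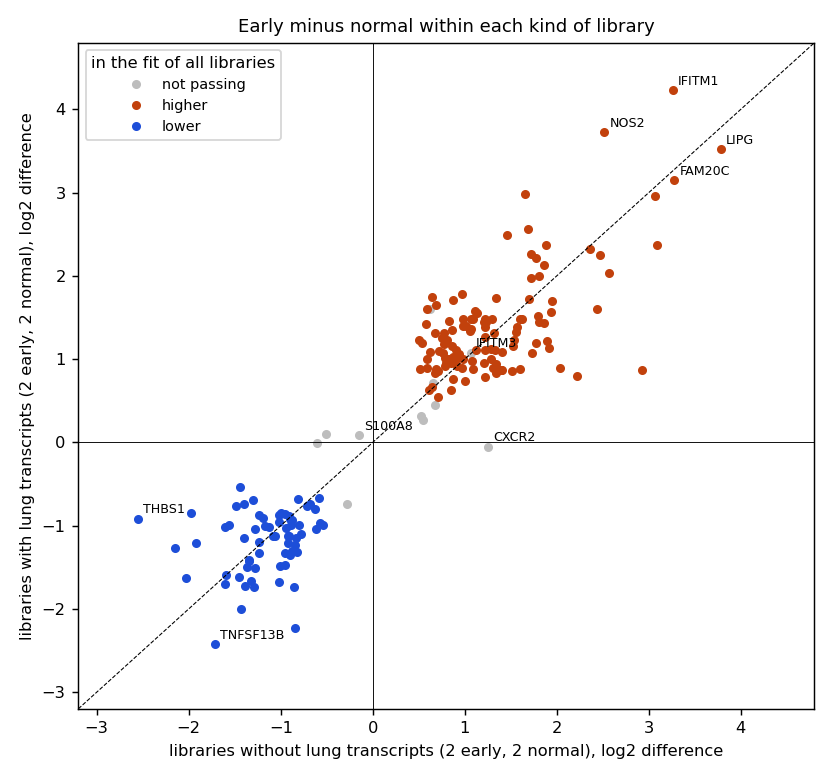
Early minus normal difference of the called and named genes within the 4 libraries without lung transcripts (x axis) and within the 4 with them (y axis), both in log2(value + 4), 2 libraries a group; the dashed line marks equal values. The orange (raised) and blue (lowered) genes lie on 1 side of 0 on both axes, which the choice of genes whose groups do not overlap fixes, and CXCR2 (1.25 and -0.05) lies off the line.

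To see which changes differed from those of T cells of the same marrow stages, the early effect in granulocytes was compared with the mean early effect in the CD4 and CD8 libraries (4 a group, 24 in all) for the 30 most changed genes. Over all 3808 genes the difference passed for 117 (3.07%). The 30 genes were chosen for their effect in these granulocyte libraries, which favours a larger effect there, so the counts among them describe and are not read against that share. Among the 15 raised genes it passed for 9, and the granulocyte effect was the higher in 14, ASPRV1 being the exception. Among the 15 lowered genes it passed for 8, and the granulocyte effect was the lower in all 15. FAM20C rose by 3.21 in granulocytes beside 0.33 in CD4 and 0.25 in CD8 cells, a difference of 2.92 ± 0.45 (adjusted p = 0.00025). LIPG differed by 3.23 ± 0.52 (adjusted p = 0.00040), MCAM by 2.05 ± 0.36 (0.0012) and CBR3 by 1.96 ± 0.39 (0.0043). IFNGR1 pointed down in T cells, at -0.38 in CD4 and -1.60 in CD8 cells, and differed by 2.54 ± 0.60 (0.019). NOS2 differed by 2.40 ± 0.54 (0.0093), but it stood at 0 CPM in normal T cell libraries and at 1.85 CPM in early CD4 and 43.4 CPM in early CD8 cells, and edgeR put the difference at -0.94. SEMA7A, at 0.23 in CD4 and 1.22 in CD8 cells, differed by -2.14 ± 0.39 (0.0013), and TNFSF13B by -1.75 ± 0.36 (0.0047).

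Several of these genes had few reads in T cells, where the added 4 shrinks a difference. TNFSF13B went from a mean of 5.14 to 0.712 CPM in CD4 and from 6.16 to 2.30 CPM in CD8 cells, and its granulocyte means had a ratio of 0.167. MCAM went from 2.46 to 0 CPM in CD4 and from 1.20 to 13.2 CPM in CD8 cells, and LIPG from 0.552 to 3.66 and from 0 to 17.1 CPM. In edgeR, whose test adds no such constant, the difference missed the threshold for LIPG (adjusted p = 0.98), MCAM (0.15), CBR3 (0.083), TNFSF13B (0.90), SLC6A13 (0.97), VNN3 (0.99) and NOS2 (0.74), and passed for ITGB3 (0.0021) and ST3GAL5 (0.032), which limma missed. Lung transcripts and depth also differed between the T cell groups. They were in 3 of 4 normal and 1 of 4 early CD4 libraries and in 2 of 4 normal and 0 of 4 early CD8 libraries. Reads ran from 178251 to 452886 in normal and 68264 to 350990 in early CD4 libraries, and from 191344 to 485167 and 43228 to 144171 in CD8 libraries. Their part in the T cell effects was not tested.

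The difference did not pass for the remaining genes. IFITM1 rose by 3.74 in granulocytes beside 2.27 in CD4 and 3.06 in CD8 cells, a difference of 1.08 ± 1.02 (adjusted p = 0.78). IFITM2 was at 2.13 beside 0.65 and 1.11, a difference of 1.25 ± 0.66 (0.49). CD3D was at -1.72 beside -0.56 and -1.39, a difference of -0.74 ± 0.28 (0.20), and CXCR4 at -1.5 beside -1.45 and -0.28, a difference of -0.63 ± 0.34 (0.47). A p above the threshold does not show that these genes changed alike. From normal to early CD8 libraries the mean of IFITM1 went from 73.1 to 1997 CPM, ASPRV1 from 55.2 to 1056 CPM and CD3D from 1115 to 469 CPM. IFNGR1, raised in granulocytes, went from 203 to 95.8 CPM there. Whether the T cell libraries held RNA of granulocytes was not tested. Of the T cell effects taken alone, 1 gene passed in CD4 and 372 in CD8 cells.

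**Figure D5:**
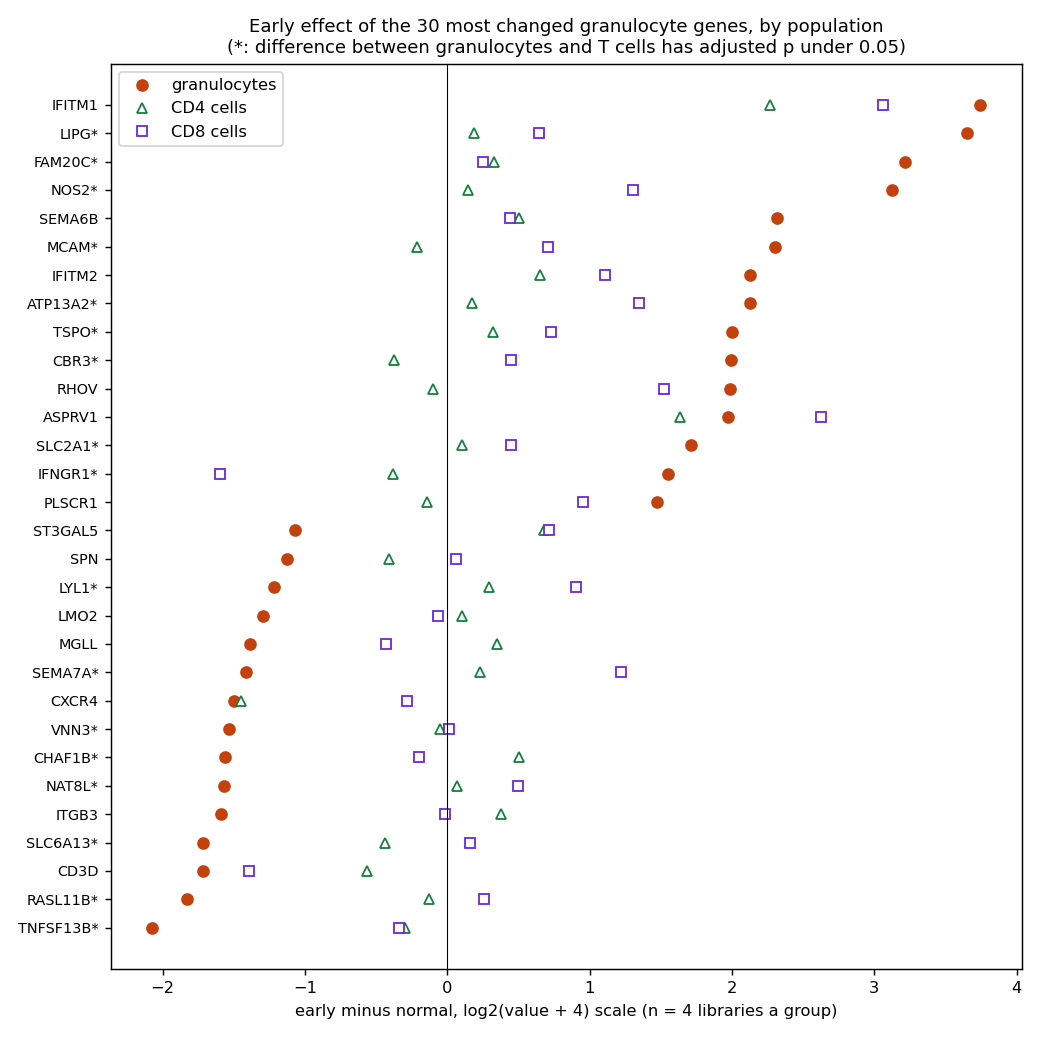
Early minus normal difference (x axis, log2(value + 4) scale, 4 libraries a group) of the 30 most changed granulocyte genes (y axis) in granulocytes, CD4 and CD8 cells; a star marks genes whose granulocyte effect differed from the mean T cell effect. FAM20C lies near 0 in T cells, while IFITM1 and ASPRV1 lie far to the right in all 3 populations.

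The late libraries, which the tests above do not compare, are set beside these levels. NOS2 stood at 153 ± 120 CPM in late peripheral (n = 4) and 159 ± 57.1 CPM in core libraries (n = 3), TSPO at 4736 ± 928 and 3774 ± 20.6 CPM, CXCR4 at 59.7 ± 15.5 and 76.1 ± 35.9 CPM, and FOS at 388 ± 180 and 1457 ± 333 CPM.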

How the data were processed

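RNA of sorted mouse marrow cells was measured by MARS-seq, per the labels' protocols. Per the submitters' processing notes, fastp 0.20.0, STAR 2.6.0c, the GRCm38 (mm10) build and DESeq2 1.30.1 were used. How genes were counted and molecular tags handled is not stated there. Values deposited by the authors are a signal, reads divided by 1 factor per library. Dividing by the value of a single read gave whole numbers for 100% of values (tolerance 0.01), and count tests on these recovered reads served as alternatives. They called 192 (edgeR 4.0.16) and 271 (DESeq2 1.42.0) genes. Features without a symbol held at most 0.0014% of a library.

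Symbols and Ensembl IDs in the files are of human form; positions come from the mouse gene with the same symbol in GENCODE M21 (GRCm38). The test was limma 3.58.1 (R 4.3.3) with trend and robust variance on log2(value + 4), fitted on 15 granulocyte libraries, the late groups sharing the spread, keeping genes that reach a value of 10 in 3 or more libraries. Genes passed at a Benjamini-Hochberg adjusted p under 0.05. The T cell comparison used 1 fit of 24 libraries. The CPM values were computed from recovered reads.

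The text names the 15 genes with the smallest p per direction (absolute log2 difference at least 1, at least 20 CPM in the higher group), up to 8 called members per list and fixed suppressor, granule and IFITM genes. Other genes are said to be chosen later or serve as list examples. Members and lists were chosen with earlier results of these data known. Alternatives were other tools, scalings, pseudocounts of 1 and 16, other filters, the 8 libraries alone, a replicate block, each library left out and the libraries with or without lung transcripts, and the mean of early 2 and 4 as 1 library. The procedure was tested on simulated data with 100 genes changed 4-fold and 100 changed 2-fold. For early against normal, 96% and 50% of them were recovered, with 8 false calls. For the T cell comparison, 75% and 10% were recovered, with 3 false calls, so most 2-fold differences there would be missed.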

Additional observations from a re-analysis of the deposited data

Results flagged for a closer look

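A single library stood far from the other 3 of its group in 9 of 184 gene and group pairs; chance alone marks about 1 in 20. Early 3 was apart for 7 of them: ATP13A2 (291 CPM against 173 to 188), SEMA6B (189 against 134 to 141), ASPRV1 (6745 against 2725 to 3114), RASL11B (16.3 against 4.94 to 6.74) and BCL2L1 (238 against 144 to 159) were high, and FAM20C (194 against 254 to 264) and LIPG (73.3 against 216 to 242) were low. Early 1 was apart for IFITM1 (12149 CPM against 6903 to 7255), and normal 2 for ARG1 (1.55 CPM against 0).

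The early effect differed between granulocytes and the mean of CD4 and CD8 cells, by a test of the difference in limma, for 17 of the 30 most changed genes, which were chosen for their granulocyte effect. For LIPG, NOS2, MCAM, CBR3, TNFSF13B, SLC6A13 and VNN3 edgeR missed the threshold. It was higher in granulocytes by 2.92 for FAM20C (adjusted p = 0.00025), 3.23 for LIPG (0.0004), 2.54 for IFNGR1 (0.019), 2.40 for NOS2 (0.0093), 2.05 for MCAM (0.0012), 1.96 for CBR3 (0.0043), 1.47 for TSPO (0.029), 1.44 for SLC2A1 (0.023) and 1.37 for ATP13A2 (0.0022), on the log2 scale. It was lower, at -2.14 for SEMA7A (0.0013), -1.89 for RASL11B (0.0047), -1.85 for NAT8L (0.03), -1.82 for LYL1 (0.0047), -1.75 for TNFSF13B (0.0047), -1.71 for CHAF1B (0.036), -1.58 for SLC6A13 (0.0045) and -1.52 for VNN3 (0.0071).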

How the results depend on the processing

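All 182 calls kept their direction in the 25 alternatives tried (142 of 142 tested under the stricter filter), which groups that do not overlap largely fix, while the counts moved. Beside 116 raised and 66 lowered genes, DESeq2 gave 168 and 103, a value of at least 20 in 4 libraries 103 and 41, and the libraries without lung transcripts 14 and 4. Those with lung transcripts, an alternative chosen after seeing the data like the term for them (153 and 88), gave 9 and 2. Early 2 and 4 averaged as 1 library, also chosen after seeing the data, gave 88 and 49 and lost PRTN3, CAMP, CSF2RB, GFI1, ADGRE5, CXCR1, LDHA, GCLM, ITGB7, CTSH and THBS1 (adjusted p 0.055 to 0.12). Leaving out each library gave 67 to 115 raised and 34 to 58 lowered. Among the named genes, TMM scaling lost CAMP, GFI1, ADGRE5, LDHA and CTSH. Scaling to the library total lost CSF2RB, GFI1, ADGRE5, CXCR1, STAT3, LDHA, SDHB, IL1R2, SREBF1, RPS20, RPL10A, RPS12 and RPL12. The calls were 57.4% raised at a pseudocount of 16 and 51.1% in limma-voom (95 and 91) against 63.7%, and 71.5% under the stricter filter. Whether the replicate numbers pair the samples cannot be told here. Deviations of same-numbered libraries correlated at -0.52 to 0.50, 2 of 4 above 0.1. Libraries alike in lung transcripts correlated at 0.13 to 0.55 and unlike ones at -0.54 to -0.32, so the sign went with these transcripts. A replicate block in the 8 libraries gave 120 and 63 genes beside 152 and 97 without it. The 117 genes that differed from T cells became 34 against CD4 cells alone, 179 at a pseudocount of 16, 73 to 114 with a granulocyte library left out and 113 with a replicate block. Differences that turned sign were S100A8 (0.024 in edgeR, 0.0084 in DESeq2 and with RLE scaling, 0.084 in the libraries with lung transcripts, 0.13 with early 2 and 4 averaged, and -0.26 to 0.18 with 1 library left out, above 0 without normal 1 or 2 or early 2 or 4), S100A9 (-0.76 to 0.072, above 0 without normal 1) and, in the libraries with lung transcripts, CXCR2 (-0.051) and TGFB1 (0.11). Against T cells ASPRV1 turned to 0.33 (CD4 alone), 0.43 (pseudocount 16) and -0.46 to 0.0094 with 1 library left out (above 0 without early 4), and NOS2 to -0.94 (edgeR). The cause was not tested. Depth limits the genes with few reads: 3808 of 15728 were tested.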

Other observations

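The following genes were chosen after their values were seen and are given as values. PROK2, which encodes a chemokine-like peptide made by myeloid cells, stood at 153 ± 47.7 CPM in normal and 1234 ± 378 CPM in early libraries (SD, n = 4 each), a change of 3.01 ± 0.57 (limma adjusted p = 0.0075). LRG1, a secreted leucine-rich glycoprotein stored in neutrophil granules, rose from 3000 ± 487 to 6948 ± 1683 CPM. UPP1, uridine phosphorylase, rose from 120 ± 14.2 to 672 ± 254 CPM, and GGT1, the gamma-glutamyl transferase that breaks down extracellular glutathione, from 55.7 ± 3.08 to 317 ± 98.0 CPM. IGFBP6, a binder of insulin-like growth factors, rose by 2.73 ± 0.44 and ASNS, asparagine synthetase, by 1.21 ± 0.22. TSC22D3, the glucocorticoid-induced leucine zipper, fell from 368 ± 106 to 169 ± 51.5 CPM, and IRF5, an interferon regulatory factor, by 1.04 ± 0.25.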
